A study of Homo sapiens with 4 samples.

Results

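The genes described here encode the subunits of RNA polymerase I, II and III, the enzymes that transcribe the nuclear genome. They were taken from the array's value table as the probe sets whose single gene symbol begins with POLR1, POLR2 or POLR3, with 1 probe set per gene. The choice went by symbol alone, although earlier results of these data were known when it was made. The rule found 30 genes of 17687 named on the array. Of these, 29 encode subunits and 1, POLR2J4, is a transcribed pseudogene of the POLR2J family. Subunit genes without a named probe set, among them POLR2F, POLR2J2 and POLR2M, were not analysed here.

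The RNA came from A549, an established human lung adenocarcinoma line labelled as non-small cell lung cancer (NSCLC), grown in medium with puromycin. All 4 arrays came from cells carrying shLDOC1, a short hairpin RNA against LDOC1, a gene for a small leucine zipper protein. The 2 arrays of the H2BK120R group came from depleted cells that also express H2BK120R, a histone H2B that cannot be monoubiquitylated at its usual lysine. The 2 arrays of the vector group came from depleted cells with the vector alone. Per the submitters' design text, the hairpin raised monoubiquitylated H2B (H2Bub1) in A549 and the mutant histone lowered it in the depleted cells, so the comparison asks which transcripts differ when the mark is reduced. Neither cells with intact LDOC1 nor cells with an unmutated H2B construct were analysed here, and the sources used here do not say whether each line is 1 clone. The labels do not say that replicates are separate cultures, so the p-values reflect variation among 4 arrays that may be technical.

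Polymerase I makes the precursor of the large ribosomal RNAs, polymerase II makes messenger RNAs and many non-coding RNAs, and polymerase III makes transfer RNAs, 5S ribosomal RNA and other short RNAs. Each enzyme has its own pair of large catalytic subunits and its own peripheral subunits. A set of small subunits is common to all 3 enzymes, and a further pair is shared by polymerases I and III only. In chromatin, H2Bub1 is known to accompany elongating polymerase II over transcribed genes.

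The table gives 1 log2 level per probe set and array for 21448 probe sets, with array medians between 6.40 and 6.43 and correlations between 0.990 and 0.994 over the 6 pairs of arrays. LDOC1, the target of the hairpin in both groups, differed by 0.35 ± 0.23 (SE) on the log2 scale, which checks no label because both groups are depleted. Of the 9 measured A549 epithelial markers, 8 lay above the median level of all probe sets, 6.41. None of the 5 alveolar type II and 4 endothelial markers did, and 1 each of the 4 leukocyte and 4 fibroblast markers did, CD68 and COL1A2. No marker passed an adjusted p of 0.05 between the groups.

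None of the 30 polymerase genes differed between H2BK120R and vector by limma at an adjusted p of 0.05, where 0% of all probe sets passed. At an unadjusted p under 0.05 the count was also 0 of 30, against 6.70% of all probe sets (3.62% higher and 3.08% lower with H2BK120R). The smallest adjusted p among the polymerase genes was 0.762. The 95% confidence interval of the difference lay within 2-fold in either direction for all 30 genes, against 75.5% of all probe sets. It lay within 1.5-fold for 16 of them, or 53.3%, against 22.9%. Polymerase probe sets were measured with a median standard error of 0.18 on the log2 scale, against 0.19 for the brighter 50% of probe sets, to which 29 of the 30 belonged. Among those brighter probe sets 92.1% had an interval within 2-fold and 45.8% within 1.5-fold, and 8.34% had an unadjusted limma p under 0.05. These intervals hold for 1 gene at a time and rest on 2 arrays per group, and differences inside them are not excluded. In simulated data, 200 of 21448 probe sets of any brightness were raised 2-fold, and 22.6% of them passed an adjusted limma p of 0.05. That threshold thus missed most changes of this size among probe sets of any brightness. The share recovered among the brighter 50% of probe sets was not simulated.

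With H2BK120R, 18 of the 30 genes had a lower mean, 11 a higher mean and 1 the same mean as with vector. Over all probe sets 49.4% were lower and 49.9% higher, and over the brighter 50% of them 44.7% were lower and 54.4% higher. The median log2 difference was -0.04 over the 30 genes, 0.00 over all probe sets and 0.03 over the brighter 50%. Over the 29 subunits it was also -0.04, but -0.12 without H2BK120R replicate 2, and 0.04 without H2BK120R replicate 1 as well as when vector replicate 2 was dropped. Both arrays of one group lay beyond both of the other for 10 genes, or 33.3% against a background of 36.5%. Among the brighter 50% of probe sets the share was 38.9%. With H2BK120R below there were 6 such genes (17.9% of all probe sets), and with H2BK120R above there were 4 (18.6%). For 19 genes, or 63.3%, the mean gap between replicate arrays was larger than the difference between the groups, and 61.6% of all probe sets showed this.

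**Figure D1:**
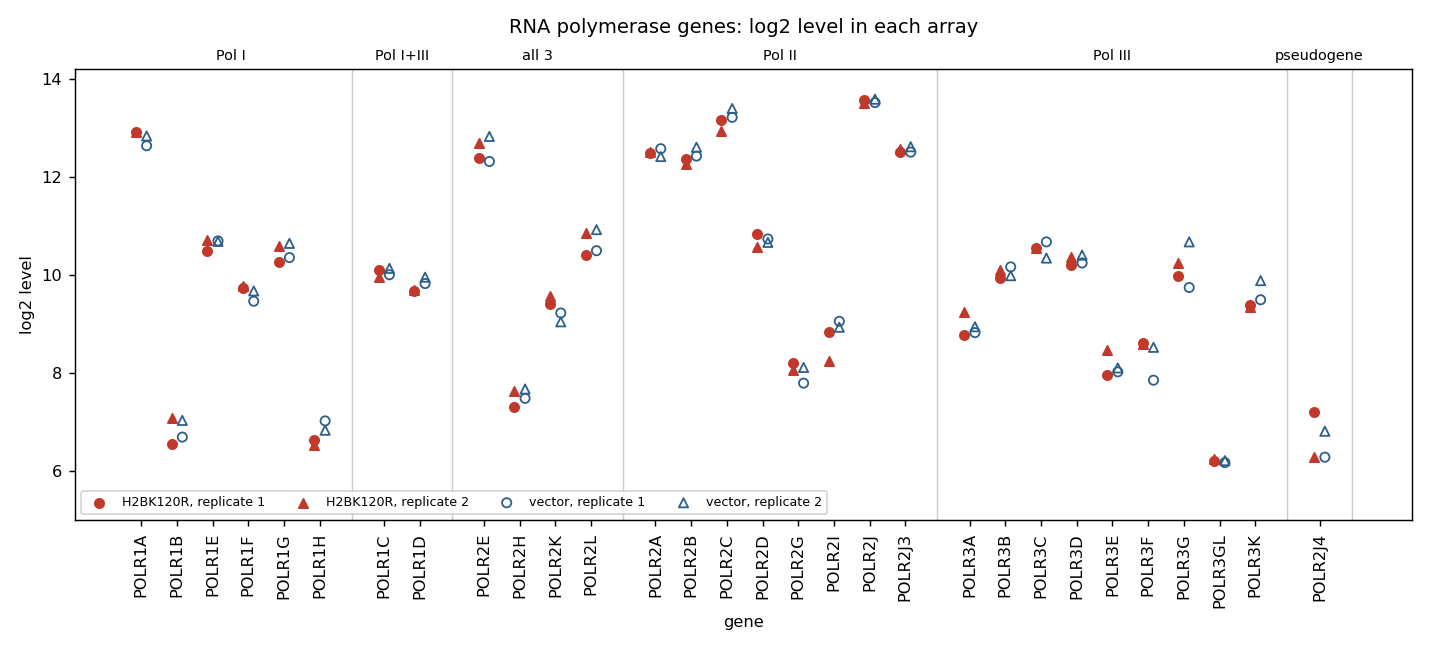
Log2 level (vertical axis) of each of the 30 polymerase genes (horizontal axis, grouped by the enzyme the subunit belongs to) in each of the 4 arrays. Filled red symbols are H2BK120R and open blue symbols are vector, circles are replicate 1 and triangles replicate 2. The symbols of a gene lie close together on an axis that spans all levels, though replicate arrays differ by as much as 0.93 (POLR3G, vector). The groups overlap for 20 genes.

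Among the catalytic subunits of polymerase I, POLR1A, the largest subunit, was at 12.93 and 12.92 with H2BK120R and at 12.64 and 12.84 with vector. Both mutant arrays were above both vector arrays. The log2 difference was 0.18 with a 95% interval from -0.10 to 0.47 (limma adjusted p = 0.810). POLR1B, the second largest subunit, was at 6.56 and 7.08 with the mutant and at 6.70 and 7.04 with vector. Its groups overlapped, its difference was -0.05 (interval -0.68 to 0.58), and the arrays numbered 2 were the higher ones in both groups.

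The peripheral subunits of polymerase I lay to either side of 0. POLR1F, part of the stalk where initiation factors dock, was at 9.74 and 9.78 with H2BK120R and at 9.47 and 9.68 with vector, so both mutant arrays were above. Its difference was 0.18 (interval -0.21 to 0.58). POLR1H, the subunit that takes part in cleaving the nascent RNA, gave the lowest difference of the class. It was at 6.64 and 6.54 with the mutant and at 7.03 and 6.84 with vector, and both mutant arrays were below. The difference was -0.34 ± 0.26 (SE), with a limma adjusted p of 0.821. POLR1E and POLR1G form a heterodimer that resembles initiation factors of polymerase II, and they differed by -0.09 and -0.07 with overlapping groups. Over the 6 subunits found in polymerase I alone, the median difference was -0.06, with 4 lower and 2 higher. Its sign depended on which mutant array was left out: it was 0.14 when replicate 1 was dropped and -0.22 when replicate 2 was dropped.

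POLR1C and POLR1D form the assembly platform shared by polymerases I and III, and variants of both genes are known in Treacher Collins syndrome. POLR1D was at 9.68 and 9.70 with H2BK120R and at 9.83 and 9.96 with vector. Both mutant arrays were below both vector arrays, and the difference was -0.21 ± 0.17 (SE) with an interval from -0.59 to 0.18. POLR1C was at 10.10 and 9.97 with the mutant and at 10.01 and 10.14 with vector. Its groups overlapped and its difference was -0.04 (interval -0.42 to 0.34).

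Of the 5 subunits common to all 3 enzymes, 4 had a probe set, of which 3 gave a lower mean in the mutant cells. POLR2K was the exception and had the highest difference among the shared subunits. It was at 9.41 and 9.58 with the mutant and at 9.23 and 9.05 with vector, and the groups did not overlap. The difference was 0.36 ± 0.19 (SE), with an interval from -0.06 to 0.77 and a limma adjusted p of 0.765. It stayed above 0 whichever array was left out, between 0.27 and 0.45.

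The other shared subunits varied more between replicates than between groups. POLR2E was at 12.39 and 12.69 with H2BK120R and at 12.32 and 12.83 with vector. POLR2L, a small zinc-binding subunit, was at 10.42 and 10.86 with the mutant and at 10.50 and 10.93 with vector. POLR2H was at 7.31 and 7.63 with the mutant and at 7.49 and 7.68 with vector. In each of these genes the arrays numbered 2 were above the arrays numbered 1 in both groups. The differences between the groups were -0.04, -0.07 and -0.12 for POLR2E, POLR2L and POLR2H, and the gaps between the H2BK120R arrays were 0.30, 0.44 and 0.32. The class median of -0.06 was therefore sensitive to single arrays, at -0.25 without vector replicate 1 and 0.18 without vector replicate 2. Dropping H2BK120R replicate 1 gave 0.13, and dropping H2BK120R replicate 2 gave -0.23.

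Polymerase II was represented by 8 of its 10 listed subunit genes of its own. POLR2A encodes the largest subunit, whose repeated C-terminal tail is phosphorylated during the transcription cycle. It was at 12.50 and 12.52 with H2BK120R and at 12.58 and 12.42 with vector, a difference of 0.01 with an interval from -0.28 to 0.30. The groups overlapped. After quantile normalization the difference was -0.04. POLR2B, the second largest subunit, was at 12.36 and 12.27 with the mutant and at 12.43 and 12.61 with vector. Both mutant arrays were below both vector arrays, and the difference was -0.21 ± 0.13 (SE), with an interval from -0.50 to 0.09.

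Assembly of polymerase II starts from POLR2C and POLR2J, the counterparts of the shared pair of polymerases I and III. POLR2C was at 13.17 and 12.94 with H2BK120R and at 13.22 and 13.40 with vector, and both mutant arrays were below. Its difference was -0.26 ± 0.13 (SE), with an unadjusted limma p of 0.0834 and an adjusted p of 0.762. After quantile normalization the unadjusted limma p was 0.04 and the adjusted p 0.722. The difference was -0.14 without H2BK120R replicate 2 and -0.16 without vector replicate 2. POLR2J, its partner, was at 13.57 and 13.52 with the mutant and at 13.52 and 13.59 with vector. The groups overlapped, and the difference of -0.01 had the narrowest interval of all 30 genes, from -0.27 to 0.25.

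POLR2J has copies that are nearly identical in sequence, so a probe set may read more than 1 of them. POLR2J3 was at 12.51 and 12.58 with H2BK120R and at 12.51 and 12.62 with vector, a difference of -0.02 (interval -0.30 to 0.26). The pseudogene POLR2J4 was at 7.21 and 6.29 with the mutant and at 6.29 and 6.82 with vector. It had the widest interval of the 30, from -0.57 to 0.96 around a difference of 0.20, and its H2BK120R arrays differed from each other by 0.92. In none of these 3 probe sets were the groups apart.

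POLR2I, a peripheral subunit that acts in RNA cleavage and fidelity, had the lowest difference and the smallest p of all polymerase genes. It was at 8.85 and 8.25 with H2BK120R and at 9.06 and 8.94 with vector. Both mutant arrays were below both vector arrays, and replicate 2 of the mutant was the low one. The difference was -0.45 ± 0.24 (SE), with an interval from -0.97 to 0.07, an unadjusted limma p of 0.0823 and an adjusted p of 0.762. Without H2BK120R replicate 2 it was -0.15, and without H2BK120R replicate 1 it was -0.75, with an unadjusted limma p of 0.0282 and an adjusted p of 0.970.

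POLR2D and POLR2G form the dissociable stalk of polymerase II. POLR2G was at 8.21 and 8.07 with H2BK120R and at 7.80 and 8.12 with vector, with overlapping groups and the highest difference of the class, 0.18 (interval -0.32 to 0.68), which was 0.02 without vector replicate 1. POLR2D had equal group means, at 10.71 in both. The 8 subunits of polymerase II alone had a median difference of -0.01, with 5 lower, 2 higher and 1 equal, and it lay between -0.08 and -0.03 with 1 array left out and at -0.06 after quantile normalization.

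The catalytic subunits of polymerase III, POLR3A and POLR3B, did not separate the groups. POLR3A was at 8.78 and 9.26 with H2BK120R and at 8.83 and 8.95 with vector, a difference of 0.13 (interval -0.35 to 0.61). POLR3B was at 9.95 and 10.11 with the mutant and at 10.17 and 9.99 with vector, a difference of -0.05 (interval -0.43 to 0.33).

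POLR3C, POLR3F and POLR3G or its paralog POLR3GL form the subcomplex through which polymerase III is brought to its promoters. POLR3F had the highest difference of all 30 genes. It was at 8.62 and 8.60 with H2BK120R and at 7.86 and 8.53 with vector, and both mutant arrays were above, though close to replicate 2 of the vector. The difference was 0.41 ± 0.25 (SE), with an interval from -0.14 to 0.97 and a limma adjusted p of 0.777. Without vector replicate 1 it was 0.08, and without vector replicate 2 it was 0.75, with an unadjusted limma p of 0.0150 and an adjusted p of 0.425. POLR3C differed by 0.04, with overlapping groups.

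POLR3G and POLR3GL are alternative subunits, of which POLR3G is known for high expression in stem and tumour cells. POLR3G was at 9.98 and 10.25 with H2BK120R and at 9.75 and 10.68 with vector. Here the vector arrays lay on either side of the mutant arrays, and the difference of -0.10 ranged from -0.56 to 0.37 as each array was left out. Without vector replicate 1, where it was -0.56, the unadjusted limma p was 0.0319 and the adjusted p 0.804. POLR3GL was at 6.22 and 6.26 with the mutant and at 6.18 and 6.22 with vector, a difference of 0.04 (interval -0.56 to 0.64). Of all polymerase genes it alone was dimmer than the median level of the array. No shift from one paralog to the other was detectable at this precision.

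POLR3K, the subunit of polymerase III that acts in RNA cleavage and termination, had the lowest difference of its class. It was at 9.40 and 9.36 with H2BK120R and at 9.50 and 9.89 with vector, and both mutant arrays were below both vector arrays. The difference was -0.32 ± 0.20 (SE), with an interval from -0.75 to 0.12 and a limma adjusted p of 0.779. Without vector replicate 2 it was -0.12, and without vector replicate 1 it was -0.51, with an unadjusted limma p of 0.0313 and an adjusted p of 0.804. POLR1H, POLR2I and POLR3K, the counterparts in the 3 enzymes that act in cleavage of the nascent RNA, thus differed by -0.34, -0.45 and -0.32, and none passed the test. This trio was picked out after its values were seen. POLR3D and POLR3E, which act together in termination, differed by -0.04 and 0.15 with overlapping groups. Over the 9 measured subunits of polymerase III alone the median difference was 0.04, with 5 higher and 4 lower, and it was -0.11 without H2BK120R replicate 2.

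**Figure D2:**
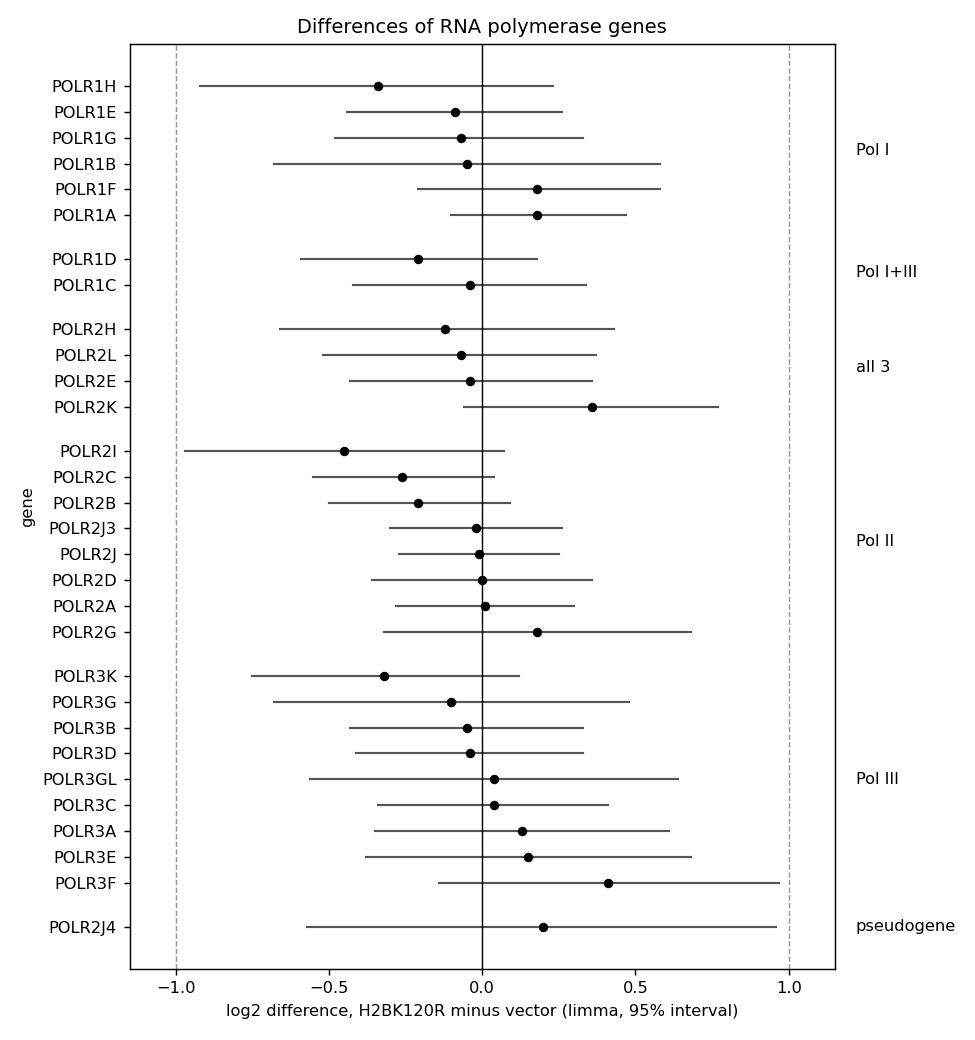
Log2 difference, H2BK120R minus vector (horizontal axis), of each polymerase gene (vertical axis, grouped by enzyme), with limma's 95% confidence interval as a line. Dashed lines mark a 2-fold difference in either direction, and every interval includes 0 and lies between them.

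Set side by side, the enzymes did not stand apart. With shared subunits included, the median difference was -0.06 over 12 genes of polymerase I, -0.03 over 12 of polymerase II and -0.04 over 15 of polymerase III. These sets have genes in common, so their medians are not independent. Without shared subunits the medians were -0.06, -0.01 and 0.04 for polymerases I, II and III. Differences of single subunits ranged from -0.34 to 0.18 in polymerase I alone, from -0.45 to 0.18 in polymerase II alone and from -0.32 to 0.41 in polymerase III alone, so the ranges overlapped. No test was run between the classes.

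Averaged over the subunits of a class, each array's deviation from the gene means showed where the spread lay. For the subunits common to all 3 enzymes the deviations were -0.14 and 0.17 in H2BK120R replicates 1 and 2, and -0.13 and 0.10 in vector replicates 1 and 2. Polymerase III alone gave -0.07 and 0.10 with the mutant and -0.12 and 0.09 with vector, and polymerase I alone gave -0.10 and 0.07 with the mutant and -0.05 and 0.09 with vector. In these 3 classes arrays of the same replicate number lay on the same side, and the groups overlapped. Polymerase II alone gave 0.03 and -0.13 with the mutant and 0.01 and 0.08 with vector, again with overlapping groups but without that order. The pair shared by polymerases I and III gave -0.03 and -0.09 with the mutant and 0.00 and 0.13 with vector. Averaged over this pair the groups did not overlap, though on its own POLR1D separated them and POLR1C did not. Over all probe sets the array deviations were between -0.01 and 0.02. Probe sets brighter than the median level gave -0.01 and 0.03 in H2BK120R replicates 1 and 2. In vector replicates 1 and 2 they gave -0.04 and 0.01. The order by replicate number was thus also present among these brighter probe sets, with smaller deviations, and was not particular to the polymerase classes.

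**Figure D3:**
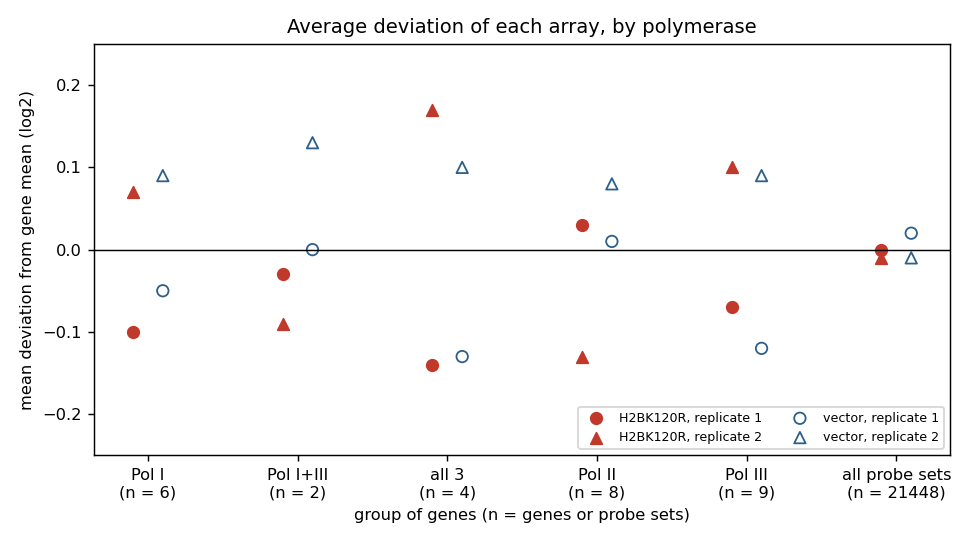
Mean deviation of each array from the gene means (vertical axis, log2) for the subunits of each class and for all probe sets (horizontal axis). Red filled symbols are H2BK120R, blue open symbols are vector, circles replicate 1 and triangles replicate 2. In the shared class the circles are at -0.14 and -0.13 and the triangles at 0.17 and 0.10.

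The factors that load, release and assemble the polymerases were read from 9 lists of 102 symbols, of which 95 were measured. None passed an adjusted p of 0.05. At an unadjusted p under 0.05 there were 6 genes, 3 higher and 3 lower, or 6.32% against the background of 6.70%, and the median difference was -0.01. Both arrays of one group lay beyond both of the other for 28.4% of these genes, against 36.5% of all probe sets.

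Polymerase I initiation and termination factors had 7 of 8 listed genes measured, 4 higher and 3 lower, with a median of 0.03. TAF1C, a subunit of the promoter selectivity factor, was at 6.60 and 7.38 with H2BK120R and at 7.54 and 7.56 with vector. Its difference of -0.56 ± 0.29 (SE) came with a wide gap between the mutant arrays. The termination factor TTF1 and the selectivity factor subunit TAF1B differed by 0.29 and 0.23. TBP, the TATA-binding protein used by all 3 enzymes, differed by -0.11 (interval -0.49 to 0.28).

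All 10 listed polymerase III initiation factors were measured, 6 lower and 4 higher, with a median of -0.07, and 2 of the 10 had an unadjusted p under 0.05, against 6.70% of all probe sets. GTF3A, which binds the internal promoter of 5S ribosomal RNA genes, was at 12.91 and 12.89 with H2BK120R and at 13.39 and 13.13 with vector. Its difference was -0.36 ± 0.13 (SE), with both mutant arrays below and a limma adjusted p of 0.724. GTF3C6, a subunit of the factor that binds tRNA gene promoters, was at 10.33 and 10.11 with the mutant and at 10.59 and 10.63 with vector. It differed by -0.39 ± 0.17 (SE) with a limma adjusted p of 0.745. GTF3C3, a subunit of the same factor, lay on the other side at 0.31 ± 0.19. Among the 7 genes of SNAPc, which acts at small nuclear RNA promoters, with MAF1 and La, the median was -0.05 and none had an unadjusted p under 0.05. SSB, which encodes La, differed by -0.14, and SNAPC3 and SNAPC1 by 0.16 and 0.17.

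General initiation factors of polymerase II had 9 of 16 measured genes lower and a median of -0.05, with GTF2H3, GTF2E1 and GTF2A1 at 0.36, 0.21 and 0.19. TFIID subunits, which recognise core promoters, had 8 of 14 higher, 6 lower and a median of 0.08. Of these TAF13 had the smallest p and differed by 0.40 ± 0.15 (SE; limma adjusted p = 0.745). TAF10 and TAF7 followed at 0.24 and 0.20.

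Pausing and elongation factors divided evenly, 8 higher and 8 lower, with a median of 0.02. ELOC, a subunit of elongin and of ubiquitin ligases, differed by -0.49 ± 0.21 (SE) with a limma adjusted p of 0.745, and its groups overlapped. ELL2 and ELOB differed by 0.18 and -0.28. The list of CTD kinases and phosphatases, which act on the tail of POLR2A, also holds PCIF1, which binds that tail and is neither. The median of the list was 0.02 over 9 genes. CCNK, the cyclin partner of tail kinases, differed by 0.32 ± 0.14 (SE) with a limma adjusted p of 0.745, CTDSPL by -0.29 and PCIF1 by 0.11.

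Assembly and import factors, which build the enzymes in the cytoplasm, had 7 of 15 measured genes higher and 8 lower, with a median of -0.01. RPAP3, part of the co-chaperone complex that assembles polymerases, was at 12.20 and 12.28 with H2BK120R and at 11.85 and 12.00 with vector. It differed by 0.31 ± 0.14 (SE) with a limma adjusted p of 0.745. UXT and PFDN2, prefoldin-type members of the same complex, lay on the other side at -0.38 and -0.31.

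Other polymerases served as a comparison. Mitochondrial transcription genes had a median of 0.03 over 6 genes, with the mitochondrial RNA polymerase POLRMT at -0.52 ± 0.24 (SE), TFAM at 0.17 and TFB1M at 0.14. DNA polymerase subunits had a median of 0.06 over 12 genes. Their lowest member was POLE4, at -0.91 ± 0.17 (SE) with a limma adjusted p of 0.492, and POLA2 and POLD3 differed by 0.38 and 0.24.

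**Figure D4:**
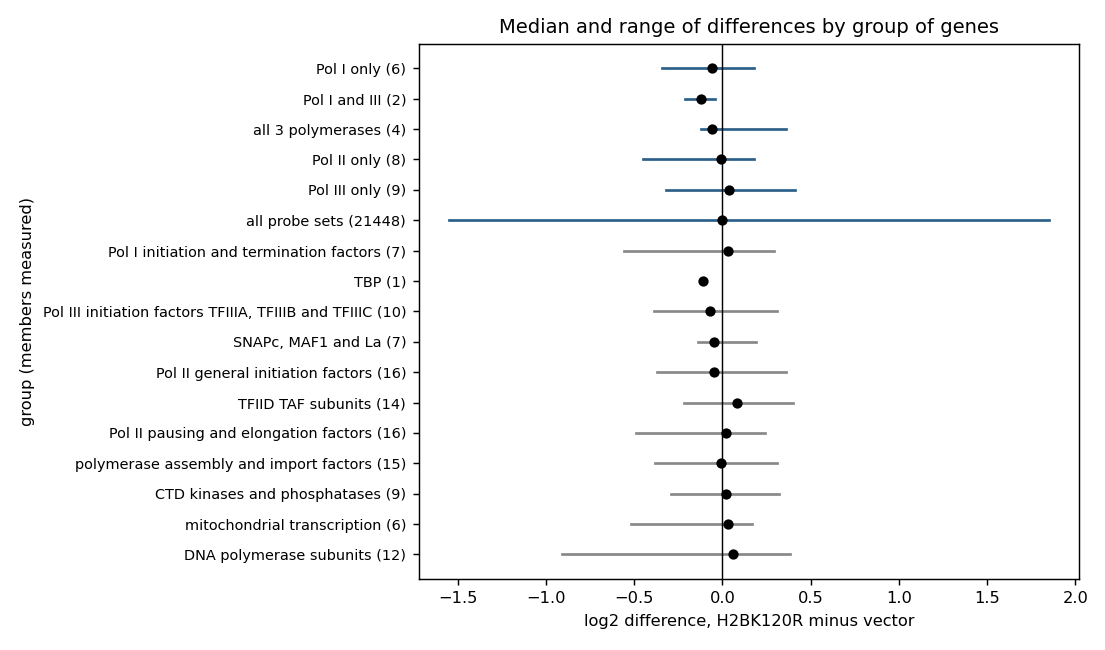
Median (point) and range (line) of the log2 differences, H2BK120R minus vector (horizontal axis), for the polymerase classes and all probe sets (blue) and the lists of associated factors (grey), with the number measured in brackets. The medians of the polymerase classes lie between -0.12 and 0.04.

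Promoter windows of 300 bases, 250 before and 50 after the annotated start, were read from RefSeq on GRCh38.p14 to see what subunit genes share in sequence. Of the 29 measured subunits 21 matched, and POLR1E, POLR2G, POLR2I, POLR2J, POLR2J3, POLR2K, POLR3D and POLR3G had no entry. Where a gene had several windows the first listed was used. The median GC content was 60.0% and the median number of CpG dinucleotides 27, against 63.0% and 22 over the 14250 promoters of measured genes. The TATA box (TATAAA, either strand) was in 0 of the 21, against 9.41% of all, and CCAAT in 5, or 23.8%, against 36.4%. The E-box CACGTG, which MYC family proteins bind, was in 4, those of POLR1G, POLR3A, POLR3C and POLR3E, or 19.0% against 8.69%. The ETS-type motif CCGGAAGT was in 3, or 14.3% against 6.24%, and the YY1-type motif AAGATGGCG in 1, or 4.76% against 2.79%. The core NRF1 motif was in 0, against 1.80%. No match of one motif overlapped a match of another in the 21 windows, and no count was tested.

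The 3 windows with the ETS-type motif are shown because they come from a subunit of polymerase II, a subunit of polymerase III and one shared by polymerases I and III, so the same letters can be seen near the start of each. Capitals mark a match to any of the motifs searched, here CCGGAAGT or its reverse complement, CACGTG in POLR3A and AAGATGGCG in POLR1C.
POLR2C, chr16:57462429-57462728, plus strand: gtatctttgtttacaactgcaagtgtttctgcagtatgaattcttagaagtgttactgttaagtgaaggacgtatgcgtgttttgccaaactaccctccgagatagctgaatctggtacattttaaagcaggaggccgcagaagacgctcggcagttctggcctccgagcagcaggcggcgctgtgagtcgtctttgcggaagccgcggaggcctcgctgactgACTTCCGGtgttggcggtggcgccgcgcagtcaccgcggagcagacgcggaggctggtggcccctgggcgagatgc
POLR3A, chr10:78029466-78029765, minus strand: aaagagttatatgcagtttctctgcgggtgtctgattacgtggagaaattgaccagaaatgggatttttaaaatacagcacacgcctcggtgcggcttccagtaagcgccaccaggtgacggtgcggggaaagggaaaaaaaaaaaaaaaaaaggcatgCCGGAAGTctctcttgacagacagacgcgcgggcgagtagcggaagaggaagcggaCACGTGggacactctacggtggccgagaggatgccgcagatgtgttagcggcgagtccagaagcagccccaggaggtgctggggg
POLR1C, chr6:43516839-43517138, plus strand: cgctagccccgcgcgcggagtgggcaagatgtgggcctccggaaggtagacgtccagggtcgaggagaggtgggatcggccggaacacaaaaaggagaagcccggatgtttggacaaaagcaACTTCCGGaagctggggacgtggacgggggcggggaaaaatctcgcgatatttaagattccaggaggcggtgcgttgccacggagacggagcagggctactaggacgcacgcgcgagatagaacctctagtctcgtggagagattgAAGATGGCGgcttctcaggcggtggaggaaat
The log2 differences of these genes were -0.26, 0.13 and -0.04, each with an interval that includes 0. Whether the motif goes with a direction was not tested. A match is a run of letters and not a measured binding site.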

How the data were processed

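Total RNA from 4 A549 samples was measured on a whole-transcript array. The deposited table holds log2 values. The log base is inferred from the range, 1.56 to 19.15, and a normalization between arrays by the authors from the near-equal medians. The submitters' processing notes name MAS5 without a version. The sources used here give no background correction, probe summary or detection calls. For arrays, their number limits the precision. Gene names came from the platform annotation of GEO, and no gene had more than 1 polymerase probe set.

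H2BK120R was compared with vector on all 21448 probe sets by limma 3.58.1 in R 4.3.3 (eBayes with a mean-variance trend, two-sided, no covariate, Benjamini-Hochberg adjustment), with 2 residual and 8.95 prior degrees of freedom, after testing on simulated data. With 2 arrays against 2, an exact permutation test cannot give a two-sided p below 0.333. No 2 arrays were copies, with at most 309 identical values in a pair. The members and lists were chosen with earlier results of these data known. Array values are given for catalytic, shared and paralogous subunits, for the highest and lowest member of each class, and for members with an unadjusted p under 0.05, of which there were 0. In each list of factors the 3 genes with the smallest p are named. Alternative settings changed the normalization (quantile, or arrays set to equal medians), the probe sets (without the dimmest 25%, without the dimmest 50%, or with 1 gene symbol only), the variance model (no trend, or robust), the design (replicate number as block) and the arrays (each left out in turn). Figures were drawn with matplotlib 3.10.9 in Python 3.11.15.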

Additional observations from a re-analysis of the deposited data

How the results depend on the processing

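Under all 12 alternative settings 0 probe sets, 0 polymerase genes and 0 associated factors passed an adjusted p of 0.05 in limma. With quantile normalization 1 polymerase gene, POLR2C, had an unadjusted p under 0.05, and with 1 array left out between 0 and 2 did. The mean over all probe sets of a gene repeated the reported values, since each gene had 1. The replicate number as a block gave 0 polymerase genes at an unadjusted p under 0.05 and 1846 probe sets in place of 1437, with a correlation of 0.14 between the deviations of same-numbered arrays. The labels give the replicates only a number, so this block is no pairing by design. With 1 array left out, the median difference was -0.22 to 0.14 for polymerase I alone, -0.25 to 0.18 for the shared subunits, -0.08 to -0.03 for polymerase II alone, -0.11 to 0.06 for polymerase III alone and -0.12 to 0.04 for all subunits, and the lone array lay outside the range of the other group for 17 to 22 of the 30 genes, a looser condition with fewer arrays that 62.7% to 73.4% of all probe sets met. Differences that took the opposite sign without some array ranged from -0.31 to 0.21 for POLR1B, -0.19 to 0.02 for POLR1E, -0.24 to 0.10 for POLR1G, -0.29 to 0.22 for POLR2E, -0.27 to 0.05 for POLR2H, -0.29 to 0.15 for POLR2L, -0.07 to 0.04 for POLR2J3, -0.14 to 0.04 for POLR3B, -0.12 to 0.04 for POLR3D, -0.56 to 0.37 for POLR3G, -0.26 to 0.66 for POLR2J4, -0.10 to 0.03 for POLR1C, -0.04 to 0.03 for POLR2J, -0.11 to 0.37 for POLR3A, -0.11 to 0.41 for POLR3E, -0.07 to 0.09 for POLR2A and -0.13 to 0.20 for POLR3C. The difference of POLR2A was also -0.04 after quantile normalization. POLR2D, equal as reported, ranged from -0.13 to 0.14. The other 12 genes kept their sign in every setting run, with sizes that moved, such as 0.02 to 0.34 for POLR2G and -0.51 to -0.12 for POLR3K. Those of POLR1A, POLR1F and POLR2B ranged from 0.09 to 0.29, 0.08 to 0.29 and -0.29 to -0.11. These fits use fewer arrays, and what else moved the values was not tested. With 2 arrays per group the 95% intervals of the polymerase genes reached between 0.26 and 0.76 to either side.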
